A study of Mus musculus with 24 samples.

Results

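The xenobiotic cytochrome P450 genes of families 1 to 3 were followed in the livers of 24 mice. Members were the protein-coding genes whose symbol is Cyp followed by 1, 2 or 3, one subfamily letter and a gene number, so symbols with a trailing letter, such as Cyp3a41a, were outside the set. The mouse annotation holds 58 such genes. The table of p16-3MR livers measured 49 of them among its 21755 genes, and the table of wild-type (WT) livers measured 43 among its 12643 genes. All 43 were also in the p16-3MR table, and the 6 that were not in the WT set were Cyp1b1, Cyp2c65, Cyp2e1, Cyp2g1, Cyp2s1 and Cyp3a57. For 4 of these 6 the WT table had a row label that fitted more than 1 gene, so the row was not used. The 9 members in neither set were Cyp2b19, Cyp2b23, Cyp2c66, Cyp2j7, Cyp2j11, Cyp2j12, Cyp2j13, Cyp2t4 and Cyp2w1.

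The p16-3MR mice carry a transgene in which the p16 promoter drives a reporter with a viral thymidine kinase, which turns ganciclovir (GCV) into a toxin inside p16+ cells. Starting at 16 to 18 months of age, they received GCV or vehicle (VEH, water at pH11) into the peritoneum on 5 days in a row each month. The dose was 150 mg/kg per the labels, whereas the study's methods give another dose. Per those methods, the livers sequenced were taken many months after that start. WT mice, which lack the transgene, were started on the same 2 agents at 6 months of age and their livers were taken after 3 months. Each cohort had 12 mice, 3 for each combination of sex and agent. The labels give batch 1 for the p16-3MR libraries and batch 2 for those of WT, so genotype, age and batch cannot be told apart, and each table was fitted on its own. In whole liver, fewer cells of a type and less RNA per cell also cannot be told apart.

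Libraries held 3084517 to 5667904 counts in WT and 5005760 to 7160172 in p16-3MR. Before scaling between libraries, 3 counts thus corresponded to 0.529 to 0.973 CPM (counts per 1000000) in WT and 0.419 to 0.599 CPM in p16-3MR. The CPM values below were scaled by edgeR's TMM factors, 0.835 to 1.14 in WT. In p16-3MR these factors ran from 0.259 in GCV-treated female 33 to 1.80 in GCV-treated male 32. A smaller factor raises the CPM per count. The spread between livers of a group was far larger in p16-3MR, with a biological coefficient of variation of 55.8% against 16.6% in WT. In p16-3MR, 3 livers stood apart. In GCV-treated female 33, mitochondrially encoded genes took 64.0% of the counts, against 12.3% to 22.4% in the other 11 p16-3MR livers and 3.62% to 5.08% in WT. GCV-treated male 32 and VEH-treated male 24 had the lowest summed hepatocyte markers (24737 and 40544 CPM) and the highest summed Kupffer cell markers (2828 and 1683 CPM), against 81789 to 112076 and 108 to 932 CPM in the 9 livers other than these 3. All 8 hepatocyte markers were measured in p16-3MR and 3 of 8 in WT.

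Cytochrome P450 enzymes are haem proteins of the endoplasmic reticulum that oxidise drugs, toxins, steroids and fatty acids, and hepatocytes are their main site. They take electrons from the reductase Por. Family 1 is switched on by the aryl hydrocarbon receptor, and the Cyp2b, Cyp2c and Cyp3a subfamilies by the nuclear receptors CAR and PXR. In rodents many of these genes are sex-biased, under the control of the pituitary's pulsatile or continuous release of growth hormone, and most lie in clusters of near-identical neighbours. In the GRCm38 annotation the Cyp2a and Cyp2b genes lie between 25897620 and 27037375 on chromosome 7, the Cyp2c genes between 39007019 and 44029208 on chromosome 19, the Cyp2d genes between 82370527 and 82794294 on chromosome 15, and the Cyp3a genes between 137892932 and 146113287 on chromosome 5.

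Because close copies are the rule in these clusters, the promoters of a pair of neighbours are shown from the Cyp2a cluster, which held female-biased members, and from the Cyp2d cluster, which held the male-biased Cyp2d9, as RefSeq gives them on GRCm38.p6. Each is the 250 bases before the annotated start, 5′ to 3′ on the gene's own strand. Cyp2a4 (chr7:26306942-26307191, plus strand) and Cyp2a5 (chr7:26835089-26835338, plus strand) were identical at 245 of 250 bases once aligned with an offset of 1 base, and capitals mark the bases that differed or had no partner.
Cyp2a4: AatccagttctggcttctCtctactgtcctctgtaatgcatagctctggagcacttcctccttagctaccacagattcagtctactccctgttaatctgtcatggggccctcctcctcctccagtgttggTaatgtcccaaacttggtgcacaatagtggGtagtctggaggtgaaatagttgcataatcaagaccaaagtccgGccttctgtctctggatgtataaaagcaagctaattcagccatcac
Cyp2a5: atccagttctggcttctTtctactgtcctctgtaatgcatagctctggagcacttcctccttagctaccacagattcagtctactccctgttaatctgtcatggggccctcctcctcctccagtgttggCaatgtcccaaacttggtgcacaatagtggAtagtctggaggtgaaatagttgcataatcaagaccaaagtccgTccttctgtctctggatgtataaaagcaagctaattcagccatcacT
Cyp2d9 (chr15:82452127-82452376, plus strand) and Cyp2d10 (chr15:82407195-82407444, minus strand) shared 84% of the bases of the 300-base windows that run 50 bases past the start. Capitals in this pair mark TATAAA on either strand.
Cyp2d9: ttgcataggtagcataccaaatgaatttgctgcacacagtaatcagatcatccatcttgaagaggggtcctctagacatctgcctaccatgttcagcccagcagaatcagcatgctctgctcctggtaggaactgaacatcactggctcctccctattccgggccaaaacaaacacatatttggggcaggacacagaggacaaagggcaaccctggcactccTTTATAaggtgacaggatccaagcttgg
Cyp2d10: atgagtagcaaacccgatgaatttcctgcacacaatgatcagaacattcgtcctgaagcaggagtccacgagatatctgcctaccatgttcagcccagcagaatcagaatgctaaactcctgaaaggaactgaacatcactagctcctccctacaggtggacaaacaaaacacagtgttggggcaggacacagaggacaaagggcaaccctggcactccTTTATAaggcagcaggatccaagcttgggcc
Over the 300-base windows, Cyp2b9 and Cyp2b13 were 99.3% identical, Cyp2a4 and Cyp2a5 98%, Cyp3a25 and Cyp3a59 96%, and Cyp3a16 and Cyp3a44 94.7%. The letters TATAAA were found in 26 of 50 member promoters (52%), against 14.2% of the promoters of all 27025 symbols. The STAT5 letters TTCNNNGAA were in 2 of 50 (4%), against 8.47% of all promoters. These are matches of letters within the windows searched, on both strands.

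The likeness reaches the 3′ ends that were sequenced. Of the 58 members, 16 shared no 31-base word of their last 500 transcript bases with another gene and 32 shared over 10% of them. Cyp2a4 shared 57.4% of its words with Cyp2a5, Cyp2c69 shared 46.4% and Cyp2c67 and Cyp2c68 62.1% and 62.6% with Cyp2c40, Cyp2d9 shared 48.6% with other genes together, and Cyp3a44 shared 49.1% with the pseudogene Cyp3a63-ps. The authors' estimation could divide reads between such copies, and the values of these members are uncertain to that degree. Members whose ends had few shared words include Cyp2b9 (1.28%), Cyp2c38 (0%), Cyp2c70 (0%) and Cyp3a13 (0.426%).

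In WT livers the summed level of the 43 members in the set overlapped between females and males, while its make-up differed. The sum leaves out Cyp2e1 and genes outside the set. Of these, Cyp3a41a was 714.8 to 1299 CPM in WT females and 0.967 to 26.9 CPM in WT males, so the overlap holds for the set only. Summed over the 43 WT members, the CPM, scaled between libraries by edgeR's TMM method, came to 8408 to 9823 CPM in females and 7613 to 9050.1 CPM in males, a female minus male difference of 0.13 on the log2 scale. Each read of these 3′-end libraries stands for the end of 1 transcript, so a sum counts transcript ends. The sexes were apart in several subfamilies.

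Cyp2b transcripts were nearly absent from WT males. Their sum was 217 to 380.2 CPM in females and 1.31 to 23.8 CPM in males (6.30 on the log2 scale). The Cyp2a sum was 1005 to 1502 CPM and 537 to 640.3 CPM (1.09), and the Cyp3a sum 853 to 1249 CPM and 319 to 816 CPM (0.85). Both were higher in every female than in every male. The Cyp2d sum went the other way, with 1181 to 1407 CPM in females and 2474 to 2626 CPM in males (-0.999). The largest subfamily, Cyp2c, summed to 3359.8 to 4186 CPM and 2441 to 3153 CPM (0.44). These sums are descriptions, with no test.

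In p16-3MR livers the total over 49 members was 5013 to 14783 CPM in females and 1330.4 to 11816 CPM in males, a female minus male difference of 0.76 on the log2 scale with overlap between the sexes, and the lowest values of each sex belonged to livers 33 and 32. Cyp2a was 1047 to 4564 CPM in females and 101 to 801 CPM in males (2.77 on the log2 scale), with no overlap. Cyp3a overlapped, at 721 to 2008 CPM and 622 to 2454 CPM (-0.33), and so did Cyp2d, at 273 to 902 CPM and 153 to 1075 CPM. The single Cyp2e member, the ethanol-oxidising Cyp2e1, was 579 to 3475 CPM in females (median 2582) and 58.2 to 4009 CPM in males (median 1733).

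**Figure D1:**
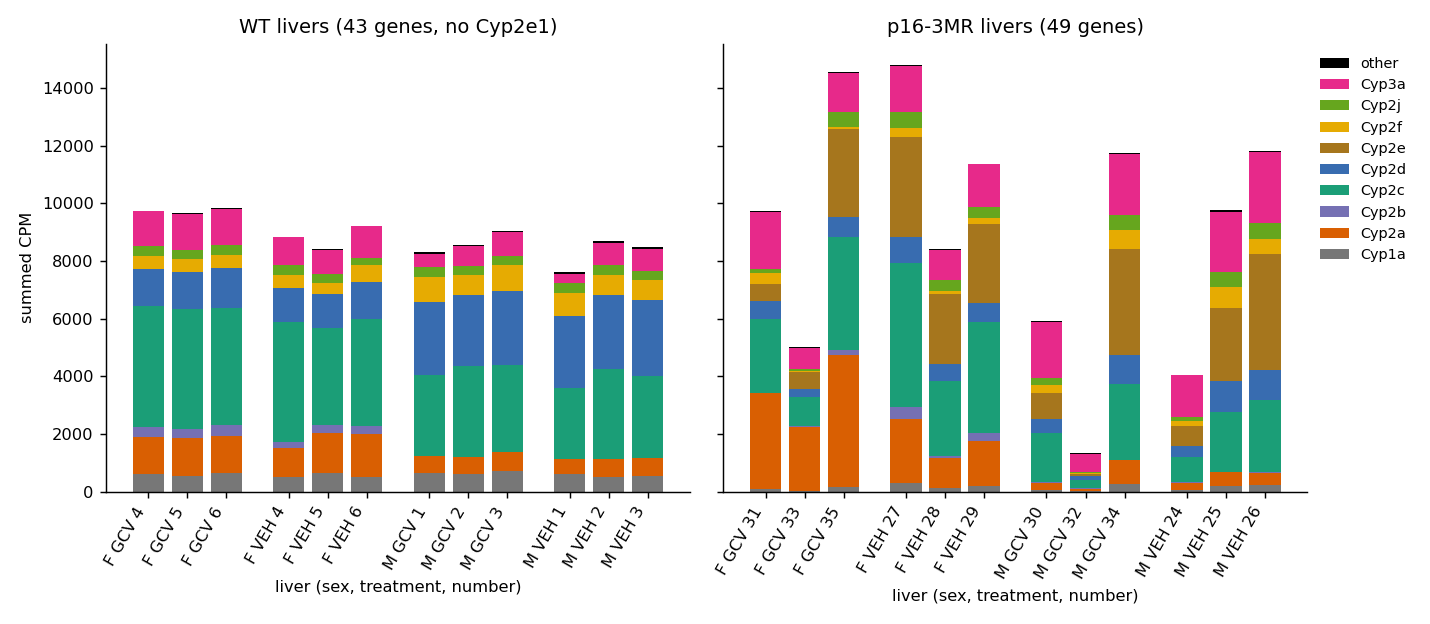
Stacked bars of TMM-scaled CPM on a linear axis from 0, summed over the members of each subfamily (colours) in each liver, with WT livers on the left and p16-3MR livers on the right; each bar is 1 liver, named by sex (F or M), treatment and number. In WT the Cyp2a, Cyp2b, Cyp2c and Cyp3a parts are larger in every female and the Cyp2d part in every male, and the p16-3MR bars differ more within each group.

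The first comparison asked how the members differ between the sexes in WT liver, with the 6 females set against the 6 males and the GCV and VEH differences averaged. In the quasi-likelihood test of edgeR, adjusted by Benjamini-Hochberg over the whole table, 25 of 43 members (58.1%) passed an adjusted p of 0.05, 18 of them higher in females and 7 higher in males. Over all 12643 genes 7.94% passed, 3.89% higher in females and 4.05% higher in males. The median absolute log2 difference was 0.99 over the members and 0.25 over all genes, while the signed medians were both 0.03, so members lay on both sides in like numbers. In 13 members every female was above every male and in 6 every female was below every male, against 2.31% and 2.46% of all genes. The summed hepatocyte markers (3 of 8 measured) were 13629 to 15295 CPM in females and 17423 to 19251 CPM in males. Of the 3, Serpina1c was itself sex-biased, at 4022 to 4766 CPM in females and 6386 to 8276 CPM in males (adjusted p = 1.43e-07 by edgeR). Ttr (9188 to 10530 and 9602 to 11708 CPM) and Tat (221 to 450 and 262 to 536 CPM) overlapped between the sexes. The part of these markers in the members' differences was not tested.

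All 4 Cyp2a members and all 3 Cyp2b members measured were higher in WT females. Cyp2a4, a steroid 15-alpha-hydroxylase, was 295 to 617 CPM in females (median 359) and 0.387 to 16.5 CPM in males (median 1.17), a log2 difference of 7.17 (SE 0.36, adjusted p = 2.18e-12). Cyp2a22 was 25.8 to 65.97 CPM in females (median 44.2) and 0 to 1.35 CPM in males (median 0.738), a log2 difference of 5.79 (SE 0.27, adjusted p = 4.79e-13). In both genes no male came near the lowest female. Cyp2a5, the coumarin 7-hydroxylase whose promoter stands beside that of Cyp2a4 above, was 249 to 505 CPM in females (median 489) and 218 to 276 CPM in males (median 258), a log2 difference of only 0.77 (SE 0.12, adjusted p = 0.000101), and the lowest female lay within the male range. Cyp2a12 differed by 0.24 (SE 0.07, adjusted p = 0.0467), which passed in 1 of 12 fits that each left out 1 liver.

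The Cyp2b genes gave some of the widest gaps. Cyp2b9 was 136 to 233 CPM in females (median 195) and 0.193 to 11.9 CPM in males (median 0.526), a log2 difference of 7.32 (SE 0.33, adjusted p = 3.58e-13). Cyp2b13, its near-identical neighbour by promoter, was 67.5 to 117 CPM in females (median 84.2) and 0 to 2.14 CPM in males (median 0.496) and differed by 7.29 (SE 0.27, adjusted p = 6.83e-15). Neither gene passed 11.9 CPM in any male. Cyp2b10, the usual readout of CAR activity, was 11.2 to 37.7 CPM in females (median 28.6) and 0.874 to 9.77 CPM in males (median 1.88) and differed by 3.16 (SE 0.34, adjusted p = 7.99e-07). Its highest male, a GCV-treated one, came close to the lowest female.

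Cyp2c genes, whose enzymes oxidise arachidonic acid, retinoids and drugs, split within 1 subfamily: of 13 measured, 6 were higher in females, 2 in males and 5 did not pass. Cyp2c40 was 429.6 to 587 CPM in females (median 436) and 7.19 to 24.6 CPM in males (median 17.6), a log2 difference of 4.82 (SE 0.13, adjusted p = 2.2e-17). Cyp2c69 was 342 to 445 CPM in females (median 400.1) and 1.53 to 18.9 CPM in males (median 4.20) and differed by 6.32 (SE 0.22, adjusted p = 2.91e-15). For both, the highest male was far below the lowest female. The retinoic acid hydroxylase Cyp2c39 was low, at 2.59 to 5.53 CPM in females (median 3.99) and 0 to 0.774 CPM in males (median 0.362), and differed by 3.38 (SE 0.49, adjusted p = 4.99e-05). Cyp2c38 was 35.3 to 59.2 CPM in females (median 47.5) and 6.65 to 19.2 CPM in males (median 11.5) and differed by 1.94 (SE 0.18, adjusted p = 1.07e-07). Cyp2c37 and Cyp2c68 also passed, with log2 differences of 1.45 and 1.34.

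On the male side of this subfamily, Cyp2c67 was 96.4 to 118 CPM in females (median 111) and 151 to 282 CPM in males (median 222), a log2 difference of -0.99 (SE 0.13, adjusted p = 1.4e-05) with no overlap. Cyp2c70, which makes the muricholic acids of mouse bile, was 423 to 586 CPM in females (median 443) and 493 to 743 CPM in males (median 568) and differed by -0.31 (SE 0.09, adjusted p = 0.0469). The Cyp2c70 groups overlapped, and the call was kept in 4 of 12 fits without 1 liver. Cyp2c29 did not pass, at 779 to 1054 CPM in females (median 929) and 749 to 1116 CPM in males (median 990.1) and a log2 difference of -0.09 (SE 0.09, adjusted p = 0.663).

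Cyp2d9, the testosterone 16-alpha-hydroxylase of male mouse liver, was 16.9 to 38.1 CPM in females (median 22.7) and 1218 to 1334 CPM in males (median 1299), a log2 difference of -5.68 (SE 0.13, adjusted p = 4.43e-18). No female came near the lowest male. Cyp2d10, whose promoter is printed with that of Cyp2d9, was 487 to 576 CPM in females (median 501) and 603 to 642 CPM in males (median 617), a much smaller log2 difference of -0.27 (SE 0.07, adjusted p = 0.0112) with no overlap. Its adjusted p was 0.0503 without GCV-treated female 4. Cyp2d26 lay on the female side by 0.32 (SE 0.07, adjusted p = 0.00453). The 5 other Cyp2d members did not pass, 3 of them at a mean under 10 counts.

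Outside these subfamilies Cyp2u1, a long-chain fatty acid hydroxylase, was 3.53 to 7.48 CPM in females (median 6.21) and 31.7 to 51.1 CPM in males (median 44.3), a log2 difference of -2.91 (SE 0.15, adjusted p = 2.47e-12). Cyp2f2, which activates naphthalene, was 393 to 573 CPM in females (median 458) and 685 to 907 CPM in males (median 761) and differed by -0.75 (SE 0.09, adjusted p = 5.25e-06). The epoxygenase Cyp2j6 differed by -0.44 (SE 0.10, adjusted p = 0.00639). All 3 were higher in every male than in every female. Its relative Cyp2j5 was 224 to 299 CPM in females (median 280.3) and 251 to 283 CPM in males (median 262) and did not pass, with a log2 difference of 0.03 (SE 0.07, adjusted p = 0.915). The vitamin D 25-hydroxylase Cyp2r1 was 11.1 to 18.4 CPM in females (median 14.8) and 17.2 to 20.2 CPM in males (median 18.9) and did not pass, with a log2 difference of -0.33 (SE 0.13, adjusted p = 0.144). Of family 1, Cyp1a2, which oxidises caffeine and aromatic amines, was 494 to 662 CPM in females (median 578) and 523 to 727 CPM in males (median 610.2), a log2 difference of -0.07 (SE 0.08, adjusted p = 0.732). Cyp1a1, the classic target of the aryl hydrocarbon receptor, reached at most 3 counts in any WT liver.

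In the Cyp3a subfamily 4 of 6 members passed, all on the female side. Cyp3a44 was 46.3 to 146 CPM in females (median 83.2) and 0 to 2.44 CPM in males (median 0.242), a log2 difference of 7.57 (SE 0.33, adjusted p = 1.38e-13). Cyp3a16, known as a fetal form, was 2.01 to 7.96 CPM in females and at 0 counts in all 6 males, at least 5.54-fold higher against a floor of 3 counts per library. Cyp3a11, the main PXR-inducible form, was 457 to 932 CPM in females (median 819) and 109 to 576 CPM in males (median 471), a log2 difference of 0.94 (SE 0.25, adjusted p = 0.0194) between overlapping groups. With DESeq2 in place of edgeR the adjusted p of Cyp3a11 was 0.106, and without GCV-treated male 1 it was 0.0528 in edgeR. Cyp3a59 was 4.64 to 12.9 CPM in females (median 10.4) and 2.40 to 5.80 CPM in males (median 4.45) and differed by 1.12 (SE 0.28, adjusted p = 0.0123). Cyp3a13 and Cyp3a25 did not pass, with log2 differences of 0.12 (SE 0.11, adjusted p = 0.628) and -0.11 (SE 0.13, adjusted p = 0.703).

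**Figure D2:**
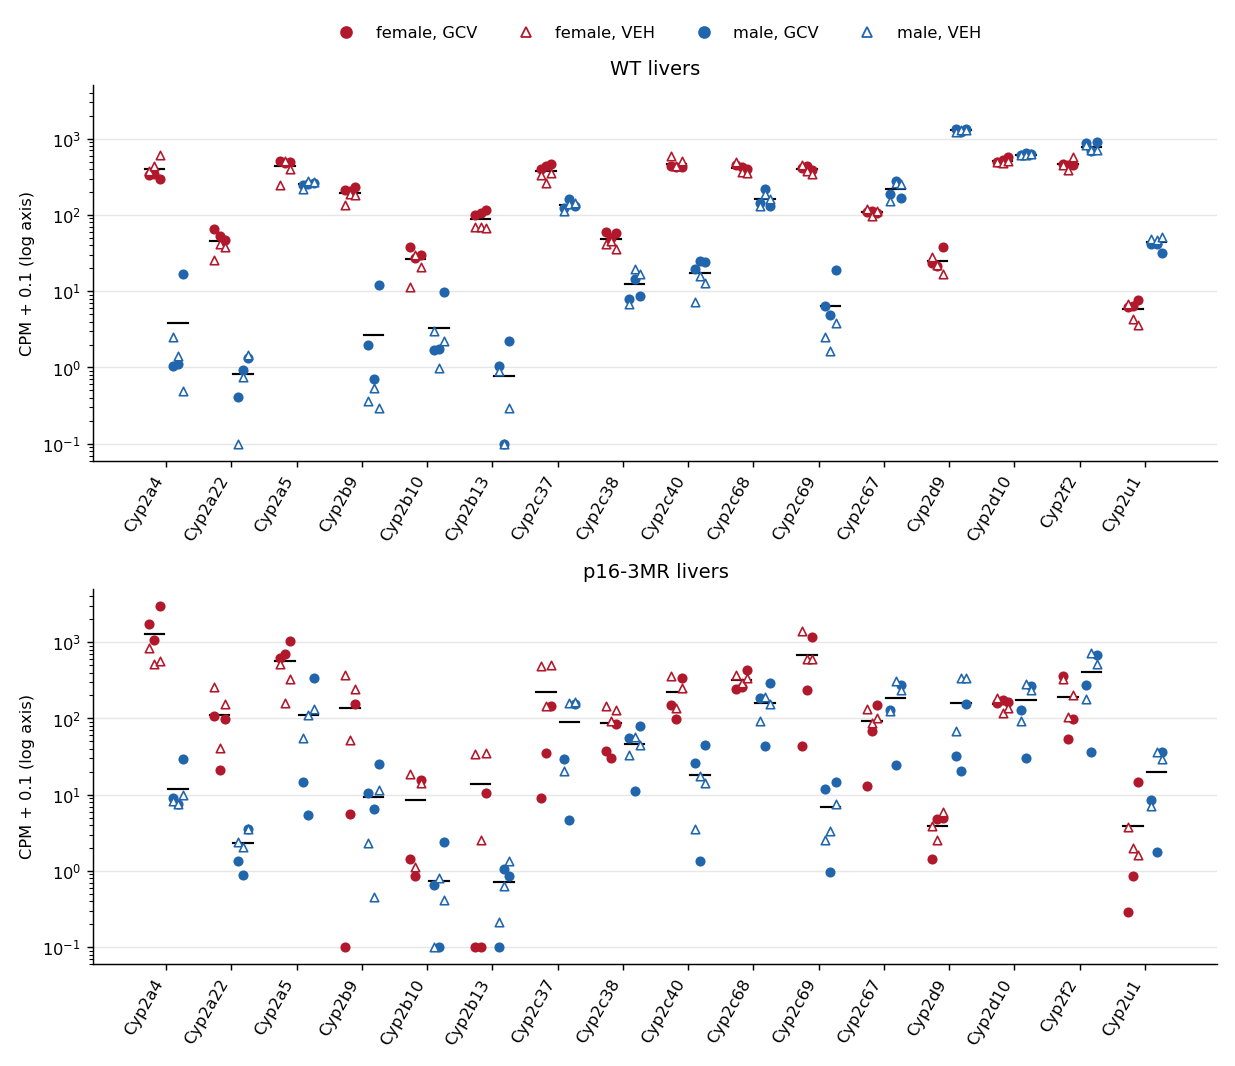
TMM-scaled CPM (log axis, with 0.1 added) of 16 members in each WT liver (upper panel) and each p16-3MR liver (lower panel), females and males side by side; each point is 1 liver, filled for GCV and open for VEH, and each line is the mean of a sex. In WT, Cyp2a4, Cyp2b9, Cyp2b13 and Cyp2c69 are high in all 6 females and Cyp2d9 in all 6 males, with 1 GCV-treated male above the other males in several female-biased genes, and the p16-3MR points spread more widely.

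The same contrast in p16-3MR liver passed 8 of 49 members, 7 higher in females and 1 higher in males. Over all 21755 genes 0.303% passed, 0.188% and 0.115% by direction. The groups did not overlap in 7 members on the female side and 2 on the male side, against 0.317% and 0.299% of all genes. The members called were Cyp3a16, Cyp3a44, Cyp2c69, Cyp2a4, Cyp2a22, Cyp2g1, Cyp2c40 and, on the male side, Cyp2d9.

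Cyp2a4 was 523 to 2982 CPM in females (median 955) and 7.50 to 29.6 CPM in males (median 8.58), a log2 difference of 6.61 (SE 0.53, adjusted p = 3.44e-05). Cyp2a22 was 20.9 to 256 CPM in females (median 102) and 0.781 to 3.46 CPM in males (median 2.15) and differed by 5.63 (SE 0.59, adjusted p = 0.000303). Both had no overlap between the sexes, although liver 33 was among the females and livers 32 and 24 among the males. Cyp2a5 was 160.3 to 1041 CPM in females (median 569.7) and 5.37 to 343 CPM in males (median 82.5), with overlap, and did not pass, with a log2 difference of 2.23 (SE 0.77, adjusted p = 0.63). Cyp2g1, known from olfactory tissue, lies in the same stretch of chromosome 7 and was 5.01 to 14.6 CPM in females (median 11.4) and 0 to 1.52 CPM in males (median 0.119), a log2 difference of 5.29 (SE 0.68, adjusted p = 0.00178).

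Among Cyp2c genes, Cyp2c69 was 43.2 to 1407 CPM in females (median 602) and 0.878 to 14.8 CPM in males (median 5.28), a log2 difference of 6.70 (SE 0.91, adjusted p = 0.00298). Cyp2c40 was 98.9 to 355 CPM in females (median 202) and 1.27 to 45.3 CPM in males (median 15.8) and differed by 3.72 (SE 0.69, adjusted p = 0.0364). The call of Cyp2c40 was kept in 3 of 12 fits without 1 liver, with adjusted p-values up to 0.137, and its adjusted p without livers 33, 32 and 24 was 7.09e-05. Cyp2d9 was 1.35 to 5.92 CPM in females (median 4.19) and 20.4 to 337 CPM in males (median 111), a log2 difference of -5.10 (SE 0.64, adjusted p = 0.00145), and no female reached the lowest male, which was liver 32.

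The other 41 members did not pass. The family 1 genes were Cyp1a2, at 20.1 to 315 CPM in females (median 149) and 9.37 to 281 CPM in males (median 129), a log2 difference of 0.07 (SE 0.68, adjusted p = 1), Cyp1b1, which reached at most 7.72 CPM in any liver, and Cyp1a1, at most 0.938 CPM. Cyp2u1, called in WT, was 0.193 to 14.4 CPM in females (median 1.70) and 1.66 to 36.7 CPM in males (median 18.8), a log2 difference of -2.41 (SE 0.83, adjusted p = 0.63). Cyp2f2 was 54.1 to 355 CPM in females (median 153) and 36.5 to 713 CPM in males (median 397) and differed by -1.06 (SE 0.64, adjusted p = 0.719). Both lay on the male side as in WT, with overlap. Cyp2e1, Cyp2j5, Cyp2r1 and Cyp3a25 had log2 differences of 0.06, -0.07, -0.09 and 0.17, and Cyp2c29, Cyp3a13 and Cyp3a59 of 1.09, 0.74 and 1.32.

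The Cyp2b members, so clear in WT, did not pass here. Cyp2b9 was 0 to 370.5 CPM in females (median 102) and 0.357 to 24.97 CPM in males (median 8.46), a log2 difference of 3.75 (SE 1.12, adjusted p = 0.455). Its VEH-treated females held 370.5, 51.4 and 243 CPM and its GCV-treated females 0, 5.41 and 153 CPM. Liver 31 thus held no Cyp2b9 and liver 35 was within the VEH range. Cyp2b13 differed by 3.97 (SE 1.02, adjusted p = 0.275) and Cyp2b10 by 3.95 (SE 1.02, adjusted p = 0.275).

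Cyp3a16 was 54.1 to 409 CPM in females (median 231) and 0.0976 to 1.15 CPM in males (median 0.761) in p16-3MR, a log2 difference of 8.51 (SE 0.64, adjusted p = 2.55e-05). Cyp3a44 was 71.8 to 1244 CPM in females (median 476) and 0.781 to 4.69 CPM in males (median 2.14) and differed by 7.88 (SE 0.73, adjusted p = 0.000111). Every female was far above every male in both genes. Cyp3a11 lay on the opposite side, at 59.5 to 489 CPM in females (median 102) and 568 to 2135 CPM in males (median 1564), with every male above every female, and its log2 difference of -3.01 (SE 0.60, adjusted p = 0.06) missed the threshold. Without livers 33, 32 and 24, an alternative chosen after the data were seen, the adjusted p of Cyp3a11 was 0.0111. Of the 12 fits that each left out 1 liver, 2 passed, those without VEH-treated female 29 (0.0074) and without GCV-treated male 32 (0.0302). With edgeR's filterByExpr the adjusted p was 0.0784. With DESeq2 on all 12 livers it was 4.98e-06, and with limma-voom and sample quality weights 0.00327. In WT the direction of Cyp3a11 was the opposite. Cyp3a16 shared 28.3% of its 3′ words with Cyp3a11. Cyp3a11 shared 10% of its own words with other genes together, and 7.87% with the pseudogene Cyp3a63-ps. Whether reads were divided between these neighbours was not tested. The difference between the tables, which differ in genotype, age and batch, was not tested.

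**Figure D3:**
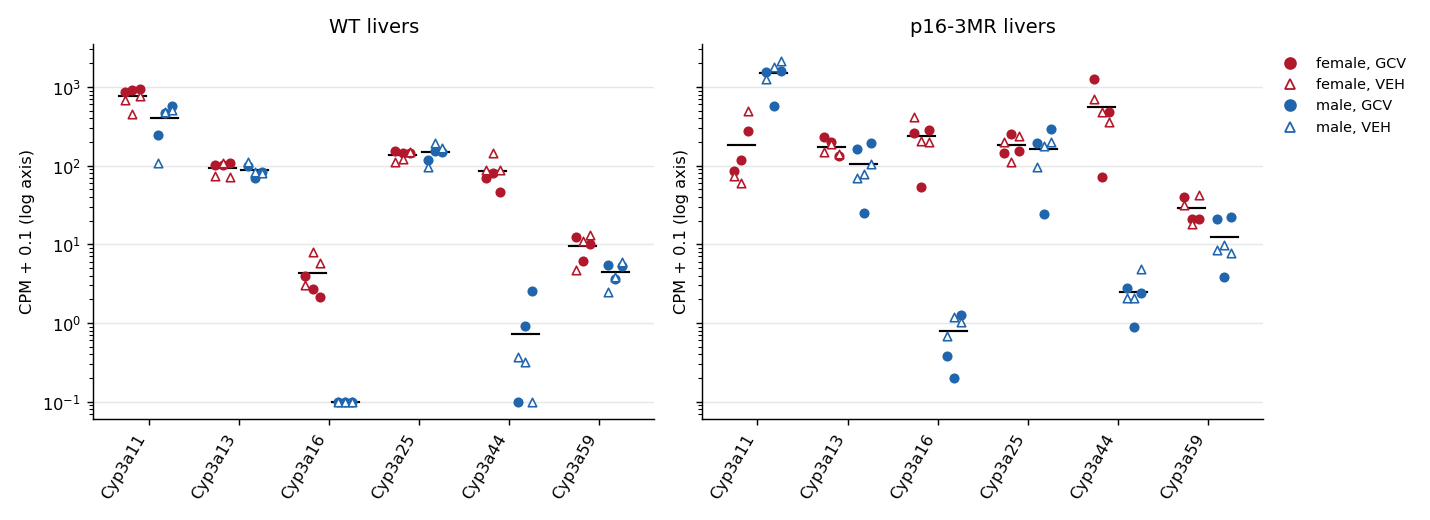
TMM-scaled CPM (log axis, with 0.1 added) of Cyp3a members in each liver of WT (left) and p16-3MR (right); each point is 1 liver, filled for GCV and open for VEH, and each line is the mean of a sex. Cyp3a16 and Cyp3a44 are under 5 CPM in all males of both tables, and Cyp3a11 is higher in WT females than in most WT males but lower in every p16-3MR female than in every p16-3MR male.

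Set side by side, 23 of the 25 members called by sex in WT (92%) had the same direction in p16-3MR. Over all genes called in WT and measured in both tables this was 531 of 779 (68.2%). Of the 8 members called in p16-3MR, 7 were measured in WT, and all 7 were called there in the same direction. The members on opposite sides were Cyp3a11 and Cyp2c70. Across the 43 shared members the log2 sex differences of the tables had Pearson's r = 0.894 and Spearman's rho = 0.741, against 0.263 and 0.0545 over 10172 shared genes. These are descriptions across genes, which are not independent replicates.

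**Figure D4:**
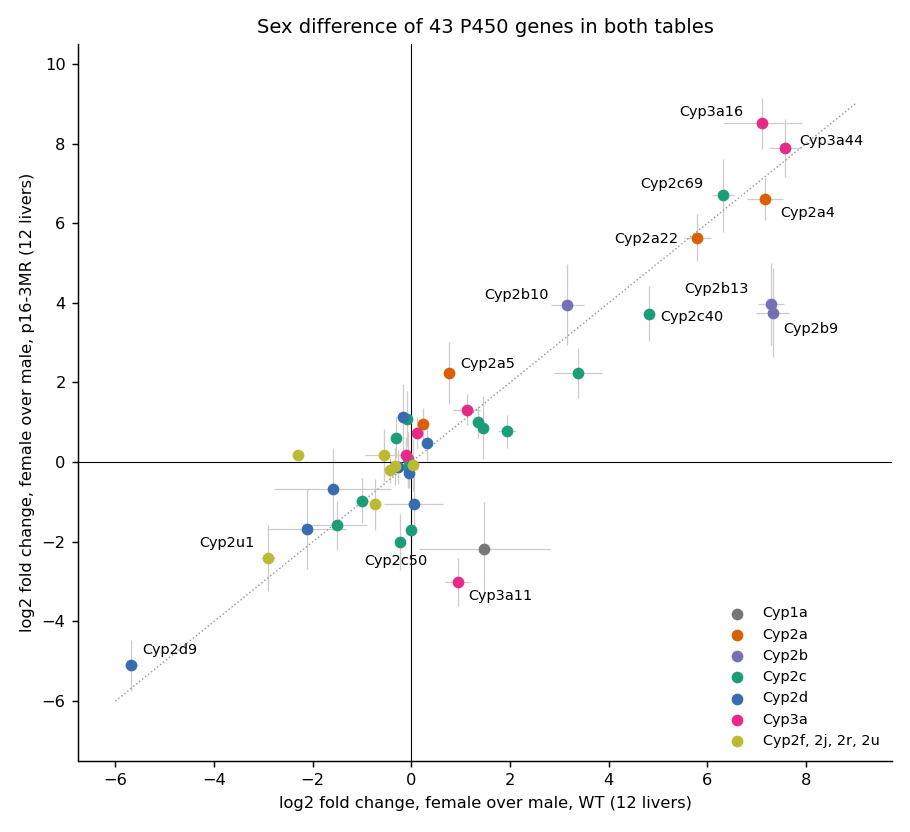
Log2 female minus male difference of the 43 shared members in WT (x axis) and p16-3MR (y axis), coloured by subfamily, with SE bars where the fit gave a usable SE and a dotted line where both would be equal. Most members called in WT lie on the same side of 0 in both tables, and Cyp3a11 lies on opposite sides.

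GCV was compared with VEH within each sex of each cohort, which in WT tests the agent without the transgene. No member passed an adjusted p of 0.05 by edgeR in any of these 4 comparisons. Over all genes 0.00791% passed in WT females and 0 in WT males and in both sexes of p16-3MR. At an unadjusted p under 0.05 there were 11 members in WT females, 6 in WT males, 4 in p16-3MR females and 2 in p16-3MR males. The corresponding shares of all genes were 4.56%, 5.06%, 7.37% and 1.91%. DESeq2 called 1 member in each of WT females, WT males and p16-3MR females and 0 in p16-3MR males, where it called 0.135%, 0.00791%, 0.415% and 0.0231% of all genes in turn.

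In p16-3MR, where both sexes carry the transgene, the comparisons bear on removal of p16+ cells. In p16-3MR females the 4 members at an unadjusted p under 0.05 were Cyp2a4 on the GCV side and Cyp2c37, Cyp2c38 and Cyp2c50 on the VEH side. These 4 were 8.16% of the members, near the 7.37% of all genes. By direction, 5.05% of all genes were higher and 2.32% lower with GCV at this p. Cyp2a4 was 1750.1, 1069 and 2982 CPM with GCV and 841, 523 and 575 CPM with VEH, a log2 difference of 1.58 (SE 0.60, unadjusted p = 0.0203, adjusted p = 0.667). Cyp2c50 was 1.93, 24.7 and 22.3 CPM with GCV and 252, 93.9 and 354 CPM with VEH, a log2 difference of -3.86 (SE 1.07, unadjusted p = 0.00287, adjusted p = 0.646). The groups did not overlap in either gene, and for Cyp2c50 DESeq2 gave an adjusted p of 0.0201. Without livers 33, 32 and 24 the Cyp2c50 difference was -4.29 (adjusted p = 0.209). Cyp2c37, an arachidonic acid hydroxylase that shares 30.6% of its 3′ words with Cyp2c50, was 8.87, 34.8 and 145 CPM with GCV and 480.0, 147 and 498 CPM with VEH, a log2 difference of -2.56 (SE 1.17, unadjusted p = 0.0468, adjusted p = 0.667). Non-overlapping groups were seen in 2 members higher and 5 lower with GCV, against 5.91% and 7.35% of all genes, and the median log2 difference was -0.31 over the members and 0.00 over all genes. Liver 33, with its large mitochondrial share, is 1 of these 3 GCV-treated females.

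In p16-3MR males the 2 members were Cyp2d9, at 31.99, 20.4 and 153 CPM with GCV and 69.2, 337 and 334 CPM with VEH (-1.85 (SE 0.76, unadjusted p = 0.0298, adjusted p = 1)), and Cyp2g1, which was at or under 1.52 CPM in every male. In neither gene were the groups apart. By direction, 1.1% of all genes were higher and 0.814% lower with GCV at this p. No member had non-overlapping GCV and VEH males, where 3.57% of all genes were higher and 2.83% lower.

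In WT females 9 members were on the GCV side and 2 on the VEH side at an unadjusted p under 0.05, against 2.25% and 2.32% of all genes. Of the 43 log2 differences 29 were above 0 and 13 below, the same numbers as in WT males. Cyp2b13 was 98.96, 105 and 117 CPM with GCV and 69.5, 68.8 and 67.5 CPM with VEH, a log2 difference of 0.64 (SE 0.20, unadjusted p = 0.00408, adjusted p = 0.758). Cyp2c37 was 403, 441 and 459.5 CPM with GCV and 337, 260.1 and 353 CPM with VEH, a log2 difference of 0.46 (SE 0.13, unadjusted p = 0.00207, adjusted p = 0.609). Every GCV-treated female was above every VEH-treated one in both genes, and the size of each difference was well under 2-fold. Cyp3a44 went the other way, with 69.6, 79.7 and 46.3 CPM and 88.05, 146 and 86.8 CPM (-0.72 (SE 0.24, unadjusted p = 0.00583, adjusted p = 0.837)). Groups did not overlap in 11 members higher and 5 lower with GCV, against 5.05% and 4.95% of all genes. The summed pericentral markers (4 of 7 measured) were 738 to 837 CPM in GCV-treated and 502 to 659 CPM in VEH-treated females. The summed lymphocyte markers (4 of 6 measured) were 2.30 to 2.94 and 3.095 to 5.31 CPM, near the floor. In WT, 3 counts are 0.529 to 0.973 CPM before TMM scaling. The part of these markers in the members' values was not tested. When only the 6 females entered the fit, 5 members passed, 3 higher and 2 lower with GCV, against 0.348% of all genes, 0.15% higher and 0.198% lower.

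**Figure D5:**
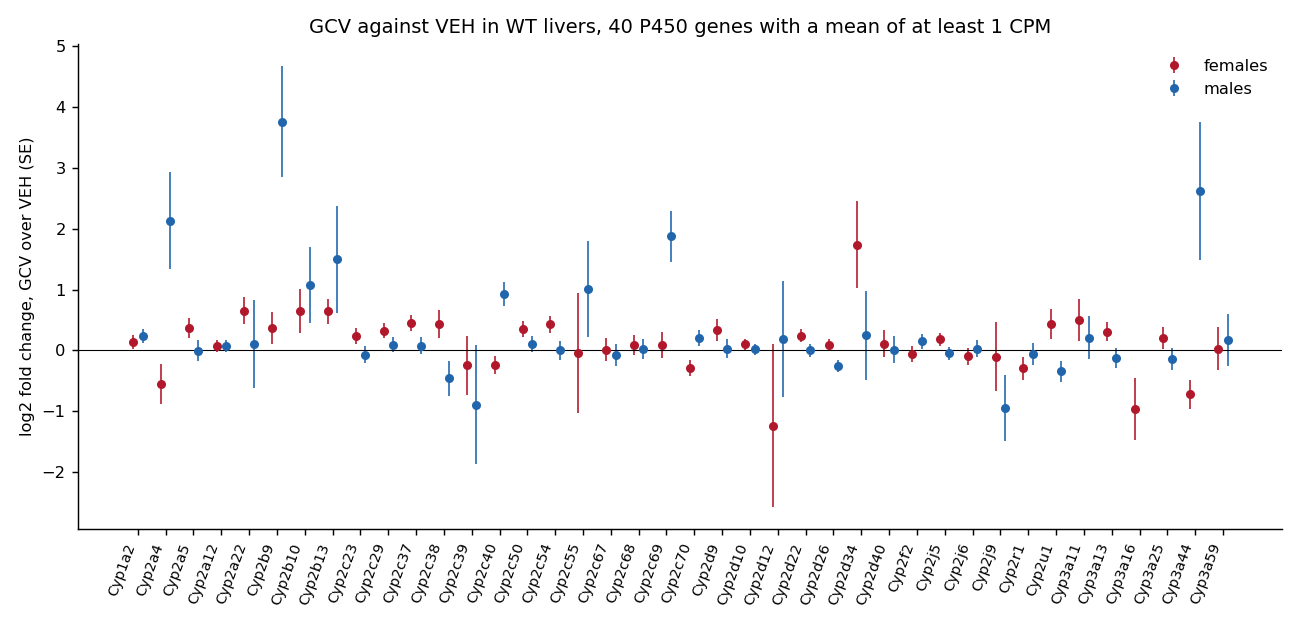
Log2 GCV minus VEH difference with SE of the 40 WT members with a mean of at least 1 CPM, in females and in males; Cyp3a16 has no point in males, where it had no count. Over all 43 WT members, 29 differences were above 0 and 13 below in each sex, and no member passed an adjusted p of 0.05 in either sex.

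In WT males the 6 members at an unadjusted p under 0.05 were Cyp2a4, Cyp2b9, Cyp2c40, Cyp2c69 and Cyp3a44, all female-biased and all higher with GCV, and Cyp2d26, lower with GCV. By direction this was 2.65% and 2.41% of all genes. Cyp2c40 was 19.5, 24.6 and 24.4 CPM with GCV and 7.19, 15.7 and 12.8 CPM with VEH, a log2 difference of 0.92 (SE 0.19, unadjusted p = 0.000113, adjusted p = 0.357). Cyp2c69 was 6.29, 4.72 and 18.9 CPM with GCV and 2.40, 1.53 and 3.68 CPM with VEH, a log2 difference of 1.88 (SE 0.42, unadjusted p = 0.000194, adjusted p = 0.383). Cyp2b9 was 1.89, 0.615 and 11.9 CPM with GCV and 0.266, 0.437 and 0.193 CPM with VEH, a log2 difference of 3.76 (SE 0.92, unadjusted p = 0.000519, adjusted p = 0.585). In all 3 genes the groups were apart. Over all members, GCV and VEH males did not overlap in 4 higher and 2 lower, against 4.48% and 4.37% of all genes. Summed marker levels parted in the same livers. Pericentral markers (4 of 7 measured) were 535 to 584 CPM with GCV and 589 to 672 CPM with VEH, and hepatocyte markers (3 of 8) 17423 to 18016 and 18358 to 19251 CPM. Erythroid markers (4 of 5) were 1660 to 3766 and 1494 to 1622 CPM, and lymphocyte markers (4 of 6) 2.20 to 3.69 and 1.06 to 1.55 CPM. The lymphocyte sums are near the floor, where 3 counts are 0.529 to 0.973 CPM before TMM scaling. Among them Cd79a was higher with GCV (1.22 to 2.67 against 0.437 to 0.580 CPM), while the mean of Cd3d was lower (0.102 against 0.363 CPM). The part of all these markers in the members' values was not tested.

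Several of these differences rest in part on a single liver, less so that of Cyp2c40. Over the 12 fits without 1 liver, the log2 GCV difference in males was 0.69 to 1.16 for Cyp2c40 and 1.05 to 2.30 for Cyp2c69. It was 1.83 to 4.42 for Cyp2b9 and 1.57 to 3.11 for Cyp3a44. Among these members only Cyp2a4 changed sign. GCV-treated male 3 was the highest male for 6 of the 10 members whose log2 sex difference was over 3, namely Cyp2a4, Cyp2b9, Cyp2b10, Cyp2b13, Cyp2c69 and Cyp3a44. Of all 46 WT genes with such a difference, this liver was the highest male for 21. Its Cyp2a4 was 16.5 CPM, against 0.387 to 2.40 CPM in the other 5 males, and its Cyp2b9 rested on 39 counts, against 1 to 6. Its values in these 6 genes were still 2.43% to 37.4% of the female means. Without this liver the Cyp2a4 difference in males turned from 2.14 to -0.35. Without GCV-treated male 2, by contrast, Cyp2b9 and Cyp2c69 passed, each with an adjusted p of 0.0156, as did 0.0316% of all genes.

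Whether GCV acted differently in the sexes was tested directly, as the difference of the GCV effects. No member passed in either table by edgeR, where 0.00791% of all genes passed in WT and 0 in p16-3MR. At an unadjusted p under 0.05 there were 10 members in WT (4.45% of all genes) and 1 in p16-3MR (3.78% of all genes), the latter being Cyp2c50. The lowest p in WT was that of Cyp2c40, whose interaction on the log2 scale was -1.17 (SE 0.24, unadjusted p = 9.91e-05, adjusted p = 0.626), the GCV difference being -0.24 in females and 0.92 in males.

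Of 25 listed receptors and regulators of these genes, 19 were measured in WT, and 4 passed the sex contrast, all higher in females. Over all WT genes 7.94% passed this contrast, 3.89% higher in females and 4.05% higher in males. Cux2, a repressor of male-biased genes known from female liver, was 7.22 to 39.2 CPM in females and 0 to 1.53 CPM in males, a log2 difference of 5.43 (SE 0.49, adjusted p = 6.16e-08). The co-regulator Trim24 differed by 1.84 (SE 0.13, adjusted p = 5.46e-10), the receptor CAR (Nr1i3) by 0.54 (SE 0.14, adjusted p = 0.0211) and the pioneer factor Foxa2 by 0.47 (SE 0.12, adjusted p = 0.0181). In p16-3MR 2 of 25 passed, Cux2 with 4.95 (SE 0.79, adjusted p = 0.0107) and Trim24 with 1.48 (SE 0.25, adjusted p = 0.0187). Both were again higher in females. Over all p16-3MR genes 0.303% passed, 0.188% higher in females and 0.115% higher in males. Of 17 electron donors, haem enzymes and partners, 7 were measured in WT and 1 passed, the microsomal epoxide hydrolase Ephx1, which was higher in males (-0.53 (SE 0.11, adjusted p = 0.00376)). None of the 17 passed in p16-3MR. No gene of either list passed a GCV contrast in either table by edgeR, where 0.00791% or 0 of all genes passed.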

How the data were processed

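RNA from 24 mouse livers was read by Smart-3SEQ, which sequences transcript 3′ ends. Per the submitters' processing notes and the study's methods, the authors trimmed reads with Trim Galore 0.6.10, checked them with FastQC 0.11.9, estimated transcript abundance with Salmon 1.10.3 on mm10, summed it to genes with tximport and dropped genes under 3 reads. Both deposited tables, for p16-3MR and for WT, hold the estimated counts (expected counts) that resulted, rounded and not scaled for depth. All 24 columns were used. Of the rows, 21698 of 21755 in p16-3MR matched a GENCODE vM21 (GRCm38) symbol. The WT row labels lack some lower-case letters, so 10496 of 12643 fitted exactly 1 symbol, 2067 several and 80 none, and only the first kind was read as a gene.

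Each table was fitted on its own with edgeR 4.0.16 in R 4.3.3 (TMM scaling, quasi-likelihood test, 1 mean per sex and treatment, all 12 livers, no filter), with Benjamini-Hochberg adjustment over every row and calls at an adjusted p under 0.05. CPM values are TMM-scaled. Log2 fold changes and their SE come from the fit, and subfamily levels are log2 of the summed CPM. A mean under 10 counts was found for 8 members in WT and 7 in p16-3MR, and their calls are the least certain. Alternatives were DESeq2 1.42.0, limma 3.58.1 voom with quality weights, other scalings, filterByExpr, an adjusted p of 0.1, fewer livers and a replicate block. The code was tested on simulated counts. Promoters came from RefSeq (GRCm38.p6) and were searched with Biopython 1.88 under Python 3.11.15. No protein sequences or genome were used here. A floor of 3 counts covers counting error only.

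Members and gene lists were chosen with earlier results of these data known. The text names members called in any comparison (for a comparison with over 20 calls, the 10 highest and 10 lowest log2 fold changes among those with a mean of at least 10 counts), the most abundant member of each subfamily, and a fixed set. Others named were chosen after their values were seen.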

Additional observations from a re-analysis of the deposited data

How the results depend on the processing

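Of the values for single members under the alternatives, 1202 kept their direction and side of the threshold, 31 moved past it, 52 fell short of it and 3 changed sign, and of the summary values 327 stayed close to the main value and 18 moved. The WT sex count was 22 to 25 of 43 over the fits without 1 liver. The p16-3MR sex count was 7 to 9 of 49 over such fits, against 8 (0.303% of all genes) in the main test. It was 12 without livers 33, 32 and 24 (0.818%), 11 with DESeq2 (0.904%) and 10 with limma-voom (0.988%). Within the main fit of all 12 livers, the sex contrast called 5 members among GCV-treated livers (0.0965%) and 6 among VEH-treated livers (0.12%). In the GCV contrasts, where edgeR called 0 members, DESeq2 called 1 in WT females (Cyp2b13; 0.135% of all genes), 1 in WT males (Cyp2c40; 0.00791%), 1 in p16-3MR females (Cyp2c50; 0.415%) and 1 in the WT sex by GCV contrast (Cyp2c40; 0.00791%). A fit of the 6 WT females alone called 5 (0.348% of all genes), and limma-voom called 1 in p16-3MR males (Cyp2d9; 0.667%). In WT males the count was 0 to 2 over fits without 1 liver, with 2 without GCV-treated male 2 (0.0316% of all genes). The log2 GCV difference of Cyp2a4 in WT males ran from -0.35 without GCV-treated male 3 to 2.76, against 2.14 in the main fit of all livers, and that of Cyp2g1 in p16-3MR males, -2.56 with all livers, ran from -3.06 to 0.0843 without VEH-treated male 24 and was 0.18 in limma-voom. With the mean of the members' log2 CPM in place of the log2 of their sum, the female minus male level was 3.43 for Cyp2a, 1.236 for Cyp2c, -0.908 for Cyp2d, -0.26 for Cyp2j and 2.00 for Cyp3a in WT, and 4.02 for Cyp2a and 2.20 for Cyp3a in p16-3MR, where the summed Cyp3a level was -0.33. This alternative weighs low and high members alike. The cause of the other shifts was not tested.

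The WT titles reuse replicate numbers between GCV and VEH. The deviations of same-numbered livers correlated at -0.026 to 0.027 in females and -0.018 to 0.158 in males, and 3 of 6 GCV-treated livers correlated best with their own number, so not every pair exceeded 0.1 and the numbers were not taken to pair the livers. The labels do not say what a shared number marks. With the replicate block 9 members passed in WT females (0.838% of all genes), 4 in WT males (0.538%) and 5 in the sex by GCV contrast (0.625%), against 0 members and 0.00791%, 0 and 0.00791% of all genes without it.

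Members with shared 3′ ends cannot be fully told apart at any depth, and the 8 WT and 7 p16-3MR members under a mean of 10 counts are limited by depth. Genotype, age and batch coincide, so no value was tested between the tables.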

Other observations

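Cyp3a41a and Cyp3a41b, whose symbols end in a letter and so fall outside the set, lie among the same Cyp3a genes. In WT, Cyp3a41a was 714.8 to 1299 CPM in females (median 899) and 0.967 to 26.9 CPM in males (median 3.25). In p16-3MR it was 1941 to 12165 CPM in females (median 5321) and 0 to 5.19 CPM in males (median 0.993). With both genes added, the Cyp3a sum was 1823 to 2242 CPM in WT females and 323 to 843 CPM in WT males, and 3018 to 16580 CPM in p16-3MR females and 623 to 2459 CPM in p16-3MR males. The overlap of the sexes in the Cyp3a sum of the p16-3MR members is thus absent once these genes are counted.

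Among the 46 WT genes of any kind with a log2 sex difference over 3, GCV-treated male 3 was the highest male for 21, GCV-treated male 1 for 13, VEH-treated male 3 for 7, GCV-treated male 2 for 3, and VEH-treated males 1 and 2 for 1 each. These 46 genes include the 10 members counted above.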
